A study of Mus musculus with 82 samples.

Results

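The enzymes that write and remove DNA methylation were followed through mouse blood stem cells and their progeny. Of the 55376 genes in the count tables, 7 were taken by symbol: the methyltransferases Dnmt1, Dnmt3a and Dnmt3b, the methyltransferase cofactor Uhrf1, and the dioxygenases Tet1, Tet2 and Tet3. All 7 were measured in each of 30 mRNA-seq libraries, which fall into 11 groups, and their loci were read in the ATAC-seq regions and histone peaks of the same study.

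Methylation of cytosine in CpG dinucleotides is copied after DNA replication by DNMT1, which is brought to half-methylated DNA by UHRF1. DNMT3A and DNMT3B place methyl groups on DNA that carried none. TET1, TET2 and TET3 oxidise methylcytosine, using 2-oxoglutarate and oxygen, which opens the way to its removal by dilution or by base excision. In blood formation DNMT3A and TET2 are best known as the genes most often mutated in clonal haematopoiesis, and mouse haematopoietic stem cells (HSCs) without either enzyme gain in self-renewal. The data here are RNA levels and chromatin values, and DNA methylation itself was not among the measurements used.

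HSCs came from the bone marrow of young and old male C57BL/6J mice and were sorted as LSK (lineage-negative, Sca-1+, c-kit+) cells that were CD34-, Flk2- and CD150+. Young libraries came from pooled mice and old libraries from individual mice, as the methods describe. There were 4 mRNA-seq libraries of young HSCs (YHSCs) and 8 of old HSCs (OHSCs). Old HSCs transduced with a control shRNA, with shRNA1 or with shRNA2 against a shorter variant of Btaf1, a TATA-binding-protein-associated factor, were profiled in culture and after transplantation, with 2 libraries for each shRNA in each experiment. The transplanted cells were GFP+ LSK CD48- CD150+ CD45.2+ donor HSCs resorted from pooled young CD45.1 recipients, so that the cultured and transplanted groups differ in environment, sort gate and kit together. All mice were wild type, and gene-level counts cannot separate the Btaf1 variants. Common myeloid progenitors (CMP), granulocyte-macrophage progenitors (GMP) and megakaryocyte-erythroid progenitors (MEP) came from young mice, with 2 libraries each, all in 1 batch by the labels. For young and old HSCs and the progenitors the labels name a total RNA kit, whereas the methods name a SMART-Seq kit for HSCs. The labels do not say which libraries of the shRNA and progenitor groups came from separate cultures, recipients or sorts, so p-values there measure only the spread between libraries.

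Gene counts per library ran from 20475764 to 24122404 in YHSCs, from 22175623 to 24654742 in OHSCs, from 37292602 to 42737054 in the shRNA libraries and from 33177394 to 36510850 in the progenitors. Levels are given as CPM, gene counts scaled to the size of each library, on 1 common scale over all libraries (TMM normalisation), and changes as log2 fold changes of edgeR with their standard error (SE). A gene was called at an adjusted p below 0.05, by edgeR's quasi-likelihood test with Benjamini-Hochberg adjustment over all genes tested. HSC markers (Procr, Slamf1, Mecom, Hlf, Hoxb5, Fgd5, Ctnnal1 and Mllt3) summed to 1495 to 1630 CPM in YHSCs and 1524 to 1808 CPM in OHSCs, and to 70.9 to 72.5 CPM in CMP. MEP carried all 8 erythroid markers above CMP, and GMP carried 7 of 8 granulocytic markers above CMP. In these bulk libraries fewer cells of a type and less RNA per cell cannot be told apart.

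On GENCODE M21 (mm10) Dnmt1 (ENSMUSG00000004099) lies at chr9:20907209-20959888 on the minus strand, Uhrf1 (ENSMUSG00000001228) at chr17:56303321-56323486 on the plus strand, Dnmt3a (ENSMUSG00000020661) at chr12:3806007-3914443 on the plus strand and Dnmt3b (ENSMUSG00000027478) at chr2:153649450-153687730 on the plus strand. Tet1 (ENSMUSG00000047146) lies at chr10:62804570-62908996, Tet2 (ENSMUSG00000040943) at chr3:133463679-133545139 and Tet3 (ENSMUSG00000034832) at chr6:83362373-83459084, all on the minus strand. The largest overlap of a single exon with an exon of an antisense gene was 90 bases at Dnmt3a (Dnmt3aos) and 43 at Tet2 (Gm42567). The total over all exons was not taken, and the counting is not stated to use strand.

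The start sites of these genes differ widely in CpG content, the substrate of the enzymes themselves, so 5 of their 12 RefSeq start windows are shown. Each window runs 5′ to 3′ from 250 bases before to 50 bases after a start on GRCm38.p6, with every CpG in capitals. Dnmt1 is shown at its most upstream start (chr9:20959839-20960138, minus strand) and at its downstream start (chr9:20952574-20952873, minus strand). The latter was the only 1 of its 3 windows that lay in an H3K4me3 peak, an H3K27ac peak and an ATAC-seq region alike. Windows were set only against histone peaks named for the same gene. Uhrf1 is shown at chr17:56304063-56304362 (plus strand), Dnmt3a at chr12:3806910-3807209 (plus strand) and Tet2 at chr3:133544341-133544640 (minus strand).
Dnmt1 upstream start: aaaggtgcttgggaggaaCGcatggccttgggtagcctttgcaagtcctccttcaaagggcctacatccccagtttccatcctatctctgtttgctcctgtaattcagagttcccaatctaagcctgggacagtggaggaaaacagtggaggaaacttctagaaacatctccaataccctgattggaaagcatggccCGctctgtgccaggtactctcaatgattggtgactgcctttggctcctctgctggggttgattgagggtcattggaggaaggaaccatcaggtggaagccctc
Dnmt1 downstream start: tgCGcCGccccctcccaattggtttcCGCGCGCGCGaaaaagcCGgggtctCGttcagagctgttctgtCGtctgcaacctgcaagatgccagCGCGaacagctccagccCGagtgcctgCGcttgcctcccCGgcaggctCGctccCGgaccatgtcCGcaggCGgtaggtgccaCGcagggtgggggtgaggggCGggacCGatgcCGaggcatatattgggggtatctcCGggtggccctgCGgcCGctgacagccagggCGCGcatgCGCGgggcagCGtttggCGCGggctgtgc
Uhrf1 start: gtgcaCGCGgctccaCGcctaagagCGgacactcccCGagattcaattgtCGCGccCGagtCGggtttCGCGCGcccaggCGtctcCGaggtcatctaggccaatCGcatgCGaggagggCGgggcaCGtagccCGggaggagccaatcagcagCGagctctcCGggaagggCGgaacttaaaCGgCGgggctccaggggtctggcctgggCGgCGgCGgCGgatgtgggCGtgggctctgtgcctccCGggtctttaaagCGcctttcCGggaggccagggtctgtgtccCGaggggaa
Dnmt3a start: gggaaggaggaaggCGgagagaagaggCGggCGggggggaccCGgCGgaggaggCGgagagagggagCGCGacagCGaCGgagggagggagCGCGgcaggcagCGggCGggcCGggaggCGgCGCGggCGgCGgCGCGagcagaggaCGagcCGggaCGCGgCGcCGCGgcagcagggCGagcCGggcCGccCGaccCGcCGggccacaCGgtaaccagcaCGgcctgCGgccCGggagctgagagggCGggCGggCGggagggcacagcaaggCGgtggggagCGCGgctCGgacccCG
Tet2 start: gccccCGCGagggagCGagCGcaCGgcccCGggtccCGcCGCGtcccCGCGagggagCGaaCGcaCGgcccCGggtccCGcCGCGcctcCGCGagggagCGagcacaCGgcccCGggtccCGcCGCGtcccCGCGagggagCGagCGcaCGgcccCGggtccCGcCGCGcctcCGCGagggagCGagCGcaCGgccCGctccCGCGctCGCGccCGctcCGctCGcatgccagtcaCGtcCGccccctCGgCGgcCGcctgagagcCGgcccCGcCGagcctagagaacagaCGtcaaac

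Over 32851 such windows of 27025 genes the median was 7 CpG, and 11 of the 12 member windows held more. The Tet2 window held 57 CpG, more than 99.8% of all windows, and the Dnmt3a window held 47, more than 98.6%. The downstream Dnmt1 start and the Uhrf1 start shown held 33 CpG each, more than 91.4% of windows. The upstream Dnmt1 start was the exception, with 2 CpG, and it lay outside every ATAC-seq region and every H3K4me3 and H3K27ac peak named for Dnmt1. The remaining Dnmt1 window (chr9:20952930-20953229), with 12 CpG, lay in an H3K4me3 peak and an ATAC-seq region but in no H3K27ac peak named for Dnmt1. Letters of the E2F motif (TTTCCCGC or TTTGGCGC, on either strand) occurred in 1 of the 12 member windows, the downstream Dnmt1 start, as TTTGGCGC beginning at base 284, and in 1.56% of all windows. CCAAT occurred in 5 member windows and in 37.4% of all windows, and GGGCGG, the letters of a GC box, in 10 member windows and in 35.7% of all windows. Motifs were searched separately, so matches may share bases.

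Uhrf1 and Tet1 spanned the widest range of levels over the 11 groups. Fresh HSCs, cultured HSCs, transplanted HSCs and progenitors came from separate experiments. Between them, experiment and cell state cannot be told apart in the ranges and orders given here. The highest group mean was 10.4 times the lowest for Tet1, 8.55 times for Uhrf1, 4.20 times for Dnmt3a, 3.98 times for Dnmt1, 3.95 times for Dnmt3b, 3.37 times for Tet2 and 2.00 times for Tet3. Tet1 was highest in transplanted HSCs with shRNA2 (75.2 CPM) and in YHSCs (74.3 CPM) and lowest in MEP (7.24 CPM). Uhrf1 ran the other way, from 424 CPM in MEP down to 59.9 CPM in YHSCs and 49.6 CPM in OHSCs.

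**Figure D1:**
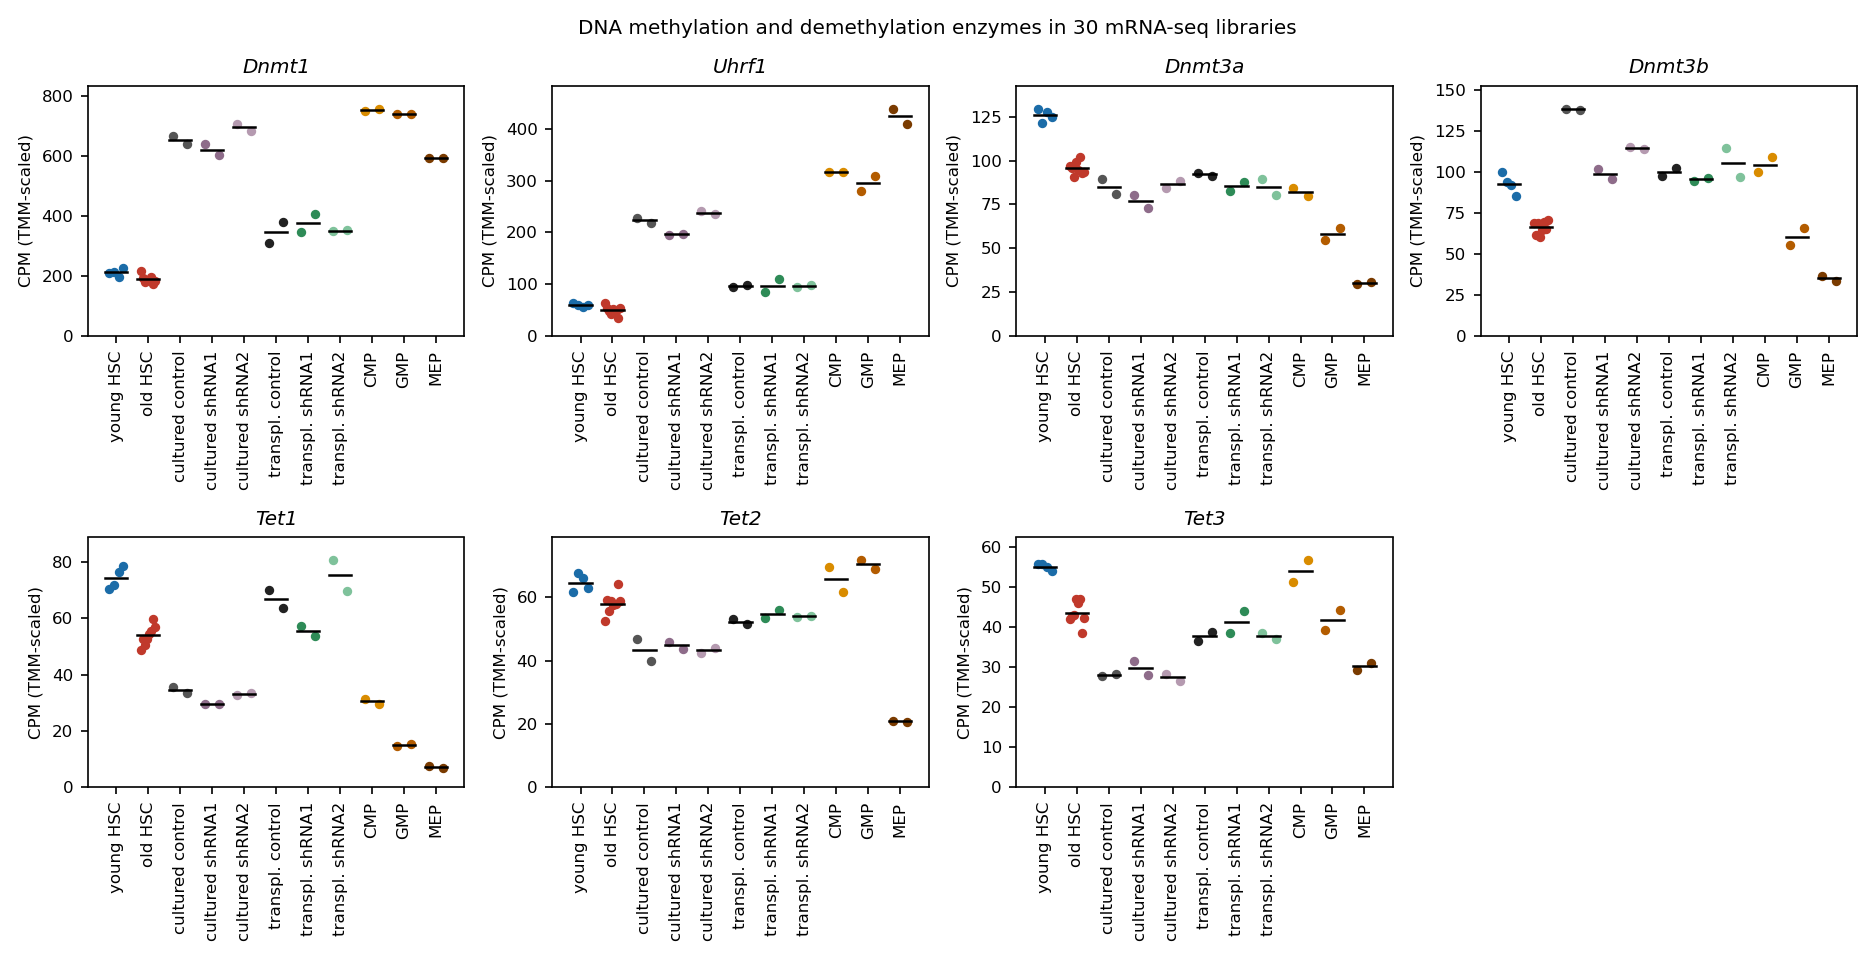
Level of each of the 7 genes in each of the 30 mRNA-seq libraries, in CPM, by the 11 groups, with 1 point for each library and a line at the group mean. Dnmt1 and Uhrf1 are lowest in fresh HSCs, while Dnmt3a, Dnmt3b, Tet1 and Tet2 are lowest in MEP. Experiment and cell state differ together between fresh, cultured and transplanted HSCs and progenitors.

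Dnmt1 was highest in CMP (756 CPM) and GMP (742 CPM), followed by cultured HSCs with shRNA2 (696 CPM), control (655 CPM) and shRNA1 (622 CPM), and by MEP (594 CPM). Transplanted HSCs followed at 345 to 377 CPM, with libraries of the 3 shRNA groups overlapping, and YHSCs (212 CPM) and OHSCs (190 CPM) came last and overlapped. Uhrf1 kept the fresh and transplanted cells at the bottom as well, with the 3 transplanted groups at 96.4 to 97.1 CPM. Dnmt3a was highest in YHSCs (126 CPM) and OHSCs (95.7 CPM), and the latter overlapped with transplanted control HSCs (92.2 CPM). Dnmt3a was lowest in GMP (58.3 CPM) and MEP (29.99 CPM).

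Dnmt3b was highest in cultured control HSCs (138 CPM) and lowest in MEP (35.02 CPM). Between cultured HSCs with shRNA2 (115 CPM) and YHSCs (92.9 CPM), each neighbouring pair of groups overlapped in the order of Dnmt3b. For Tet2 the 4 highest groups, GMP (70.3 CPM), CMP (65.6 CPM), YHSCs (64.5 CPM) and OHSCs (58.0 CPM), overlapped with their neighbours, and MEP stood last at 20.9 CPM. Tet3 was highest in YHSCs (55.1 CPM) and CMP (54.0 CPM) and lowest in the cultured cells (27.5 to 29.8 CPM) and MEP (30.2 CPM).

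Per length of exon, the order of the genes was not the same in stem cells and progenitors. The length was that of all annotated exons of a gene merged, 16.6 kb for Dnmt3a and 5.11 kb for Dnmt3b. It need not be that of the transcripts expressed, so the order between genes is not read as that of transcript numbers. In YHSCs Dnmt1 led with 28.7 CPM per kb, followed by Dnmt3b with 18.2, Uhrf1 with 14.1, Dnmt3a with 7.57, Tet1 with 4.81, Tet2 with 3.82 and Tet3 with 3.30 CPM per kb. In MEP Uhrf1 led with 99.6 CPM per kb and Dnmt1 followed with 80.5, whereas Dnmt3b stood at 6.86, Tet3 at 1.81, Dnmt3a at 1.80, Tet2 at 1.24 and Tet1 at 0.469 CPM per kb. The ratio of Dnmt3b to Dnmt3a within a library, in CPM with no length correction, was 0.685 to 0.774 in YHSCs and 1.55 to 1.70 in cultured control HSCs. The ratio of Tet1 to Tet2 was 1.07 to 1.25 in YHSCs, 0.893 to 0.969 in OHSCs, and 0.207 to 0.225 in GMP, with no overlap among these 3 groups.

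The comparison of OHSCs with YHSCs asked how age changes these genes. Both de novo methyltransferases fell with age, as did Tet1 and Tet3 and, by a small amount, Dnmt1. Of the 7 genes, 5 were called lower, against 8.67% of all 21522 genes tested, and 0 were called higher, against 11.9%. The median log2 fold change of the 7 was -0.32, and that of all genes was -0.01. No member passed a fold of 1.5. Btaf1, the gene whose shorter variant the study followed, rose by 0.53 (SE 0.09, adjusted p = 0.000807), from 82.7 ± 12.04 CPM (SD, n = 4) to 117 ± 11.8 CPM (n = 8).

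Dnmt3a stood at 130, 121, 128 and 125 CPM in the 4 YHSC libraries, and at 90.6 (lowest), 95.4 (median) and 102 CPM (highest) in the 8 OHSC libraries. The 2 ages did not overlap, and Dnmt3a fell by 22.9% (log2 fold change -0.37, SE 0.04, adjusted p = 1.25e-07). Dnmt3b stood at 99.9, 93.9, 92.1 and 85.6 CPM in YHSCs and at 60.3, 66.8 and 70.8 CPM (lowest, median and highest) in OHSCs. Every OHSC library was below every YHSC library, and Dnmt3b fell by 27.7% (-0.47, SE 0.05, adjusted p = 1.84e-07). The maintenance enzyme Dnmt1 stood at 211, 213, 198 and 225 CPM in YHSCs and at 173, 187 and 215 CPM in OHSCs. The ages overlapped for Dnmt1, which fell by 9.04% (-0.14, SE 0.05, adjusted p = 0.0432). This call was lost without a filter on low counts (-0.12, adjusted p = 0.186), with the replicate number as a block (-0.10, adjusted p = 0.396 with 26121 genes tested, and -0.11, adjusted p = 0.182 on the 21522 genes tested without it), with spike-in scaling, an alternative chosen after seeing the data (-0.13, adjusted p = 0.2), and without any 1 of YHSC libraries 1, 2 and 4 or OHSC libraries 2, 3, 4, 5, 7 and 8 (-0.14 to -0.11, adjusted p = 0.0523 to 0.208).

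Uhrf1 stood at 63.7, 60.2, 56.4 and 59.3 CPM in YHSCs and at 35.1, 50.4 and 62.9 CPM in OHSCs. Its old libraries, from individual mice, spread wider than its young ones, from pooled mice (SD 8.50 against 3.01 CPM). Age and pooling cannot be told apart in this spread. The log2 fold change of Uhrf1, -0.25 (SE 0.12, adjusted p = 0.185), was not called. Without OHSC library 1, the highest, Uhrf1 was called lower (-0.31, adjusted p = 0.0358).

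Among the dioxygenases, Tet1 stood at 70.5, 71.9, 76.2 and 78.6 CPM in YHSCs and at 48.6, 53.6 and 59.9 CPM in OHSCs. The ages did not overlap, and Tet1 fell by 26.4% (-0.44, SE 0.05, adjusted p = 7.26e-07). Tet3 stood at 55.6, 55.7, 55.0 and 53.9 CPM in YHSCs and at 38.4, 42.9 and 47.0 CPM in OHSCs. Tet3 likewise showed no overlap and fell by 19.7% (-0.32, SE 0.05, adjusted p = 6.26e-05). Tet2 stood at 61.7, 67.5, 66.0 and 62.7 CPM in YHSCs and at 52.4, 58.3 and 64.1 CPM in OHSCs, which overlapped. Its log2 fold change of -0.13 (SE 0.05, adjusted p = 0.0694) missed the threshold, and it was called by DESeq2 (-0.14, adjusted p = 0.04) and without OHSC library 7 (-0.16, adjusted p = 0.0204).

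**Figure D2:**
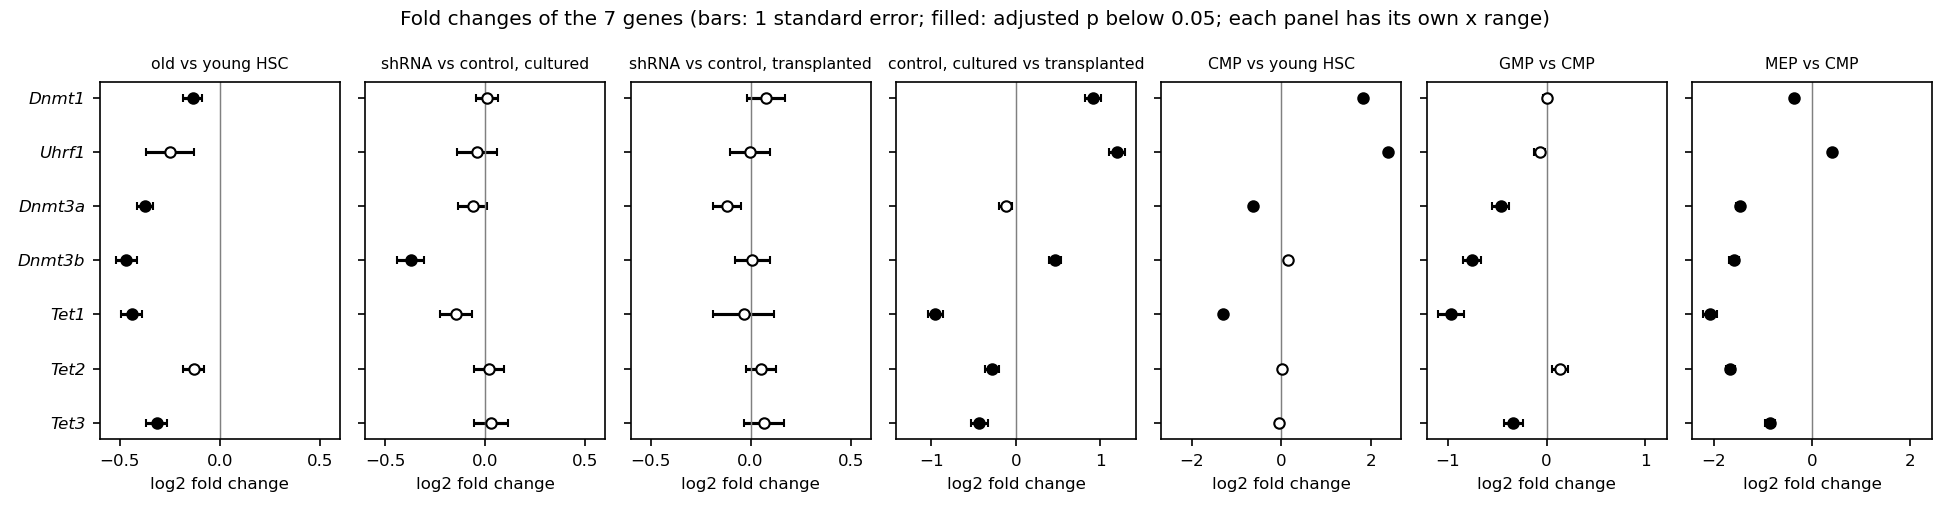
Log2 fold change of each of the 7 genes in the comparisons between groups, with bars for 1 SE, and filled points where the adjusted p of edgeR was below 0.05. With age the 5 called genes lie between -0.14 and -0.47, whereas between MEP and CMP Uhrf1 lies at 0.41 and the other 6 between -0.36 and -2.09.

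Of 33 other genes of DNA methylation (maintenance, de novo, readers, excision, dioxygenase partners and cofactor supply), 2 rose with age, 6 fell and 25 were not called, with a median log2 fold change of -0.08. Gadd45g, a stress-induced gene linked to demethylation, rose by 1.74 (SE 0.16, adjusted p = 1.63e-06), and Zfp57, which protects methylation at imprinted loci, by 0.84 (SE 0.10, adjusted p = 3.41e-07). The 3 largest decreases were those of Hells, a chromatin remodeller needed for methylation, by 0.27 (adjusted p = 0.0177), Zbtb38, a reader of methylated DNA, by 0.23 (adjusted p = 5.8e-05) and Idh2, which makes 2-oxoglutarate in mitochondria, by 0.22 (adjusted p = 0.000142).

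Marker lists moved between the ages as well. B cell markers fell for 6 of 8 (summed 77.2 to 139 CPM in YHSCs, 33.6 to 40.6 CPM in OHSCs), MEP markers for 7 of 8 (1328 to 1499 against 1117 to 1444 CPM) and proliferation markers for 7 of 14 (1316 to 1374 against 905 to 1116 CPM). GMP markers rose for 1 and fell for 2 of the 7 tested (154 to 183 against 288 to 342 CPM), megakaryocyte markers rose for 3 and fell for 1 of the 6 tested (1474 to 1561 against 1804 to 2124 CPM), and HSC markers rose for 3 and fell for 1 of 8. T cell markers fell for 1 of the 3 tested (12.7 to 14.1 against 9.28 to 12.6 CPM). No marker was at 0 across either age, Mki67 was not called (-0.20, adjusted p = 0.34), and the part of these markers' cells in the values of the 7 genes was not tested.

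The shRNA libraries asked whether lowering Btaf1 in old HSCs changes the same genes. In culture, Btaf1 stood at 149 and 153 CPM with the control shRNA, at 117 and 127 CPM with shRNA1 and at 121 and 123 CPM with shRNA2. All 4 shRNA libraries were below both controls, and Btaf1 fell by 0.31 (SE 0.05, adjusted p = 0.00151). Of the 7 genes Dnmt3b alone was called, as 1 lower against 1.66% of 19763 genes tested, and 0 were called higher, against 1.7%.

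Dnmt3b stood at 139 and 138 CPM with the control shRNA, at 102 and 96.0 CPM with shRNA1 and at 116 and 114 CPM with shRNA2. Both shRNAs lay below both controls, with shRNA1 the lower of the 2, and Dnmt3b fell by 0.37 (SE 0.07, adjusted p = 0.0098). With each shRNA compared with the same controls, Dnmt3b fell by 0.48 with shRNA1 (adjusted p = 5.93e-08) and by 0.27 with shRNA2 (adjusted p = 0.000351). Without either control library the call was lost, at about the same size (-0.37, adjusted p = 0.167 without control 1 and -0.37, adjusted p = 0.137 without control 2). The lone control is then assumed to vary like the other groups.

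The other 6 genes were not called in culture. Their log2 fold changes were 0.01 for Dnmt1 (adjusted p = 0.968), -0.04 for Uhrf1 (0.902), -0.06 for Dnmt3a (0.761), -0.15 for Tet1 (0.424), 0.02 for Tet2 (0.944) and 0.03 for Tet3 (0.925). For Uhrf1 the shRNAs lay apart, at 228 and 218 CPM in controls, 195 and 197 CPM with shRNA1 and 241 and 236 CPM with shRNA2. Both shRNA1 libraries lay below the controls and both shRNA2 libraries above. Uhrf1 was called with shRNA1 alone (-0.19, adjusted p = 0.00196), and the difference between the shRNAs was not tested. Proliferation markers fell for 5 of 14 in the pooled comparison and summed to 5090 to 5213 CPM in controls, 4642 to 4716 CPM with shRNA1 and 5127 to 5152 CPM with shRNA2. MEP markers fell for 2 of the 5 tested (684 to 692 CPM in controls, 530 to 544 CPM with shRNA1 and 690 to 709 CPM with shRNA2), and 1 each of the HSC, megakaryocyte and GMP markers fell, while 0 of 3 B cell markers and 0 of 1 T cell marker tested were called. The part of these markers in the values of Dnmt3b and Uhrf1 was not tested. Of the other methylation genes 31 were tested, 0 rose and 2 fell, which were Zfp57 by 0.67 (adjusted p = 0.0016) and Idh1, which makes 2-oxoglutarate in the cytoplasm, by 0.36 (adjusted p = 0.00379).

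After transplantation Btaf1 stood at 158 and 164 CPM with the control shRNA, at 129 and 136 CPM with shRNA1 and at 118 and 116 CPM with shRNA2. Its log2 fold change of -0.37 (SE 0.08) had an adjusted p of 0.791 in edgeR's quasi-likelihood test, in which no gene of 20350 was called. So 0 of the 7 genes were called, against 0.0% of all genes in either direction, 0 of the 7 reached an unadjusted p below 0.05, and DESeq2 called 0 of the 7 and 60 genes in all. Over all genes, 1138 had an unadjusted p below 0.05.

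Dnmt3b stood at 97.3 and 102 CPM with the control shRNA, 94.6 and 96.3 CPM with shRNA1 and 115 and 96.7 CPM with shRNA2 after transplantation. Both shRNA1 libraries lay below both controls and both shRNA2 libraries, whereas shRNA2 overlapped the controls. With the shRNAs pooled the log2 fold change was 0.01 (SE 0.09). The other log2 fold changes were -0.12 for Dnmt3a, -0.0345 for Tet1, -0.0024 for Uhrf1, 0.0511 for Tet2, 0.0673 for Tet3 and 0.08 for Dnmt1 (adjusted p = 0.928 to 0.999 by edgeR). The effect of the shRNAs on Dnmt3b was 0.38 higher after transplantation than in culture (SE 0.12), with an unadjusted p of 0.00753 and an adjusted p of 0.313 for the interaction in edgeR's quasi-likelihood test. No member was called for the interaction, against 0.103% of genes higher and 0.107% lower, and DESeq2 called 0 members. By edgeR 1 of 7 had an unadjusted p below 0.05, against 1876 of all 21443 genes. The interaction was -0.0554 for Dnmt3a, 0.0321 for Tet2, 0.0395 for Uhrf1, 0.0397 for Tet3, 0.0679 for Dnmt1 and 0.11 for Tet1.

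Cultured and transplanted control HSCs differed in 6 of the 7 genes. Cultured cells carried more of the maintenance pair and of Dnmt3b, and less of all 3 dioxygenases. In culture 3 were higher, against 21.4% of 21443 genes tested, and 3 were lower, against 22.3%, with a median of -0.03 over all genes.

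Uhrf1 stood at 228 and 218 CPM in culture against 94.4 and 99.2 CPM after transplantation, a rise of 1.199 (SE 0.09, adjusted p = 3.8e-07). Dnmt1 stood at 669 and 640 CPM against 310 and 381 CPM, a rise of 0.91 (SE 0.09, adjusted p = 9.62e-06). Dnmt3b stood at 139 and 138 CPM against 97.3 and 102 CPM, a rise of 0.46 (SE 0.07, adjusted p = 0.000154). For these 3 genes no transplanted control reached the level of a cultured one. Tet1 stood at 35.7 and 33.6 CPM in culture against 69.9 and 63.6 CPM after transplantation and fell by 0.95 (SE 0.09, adjusted p = 9.35e-07). Tet3 stood at 27.7 and 28.4 CPM against 36.6 and 38.8 CPM and fell by 0.43 (SE 0.10, adjusted p = 0.00233). The smallest call was Tet2, at 46.8 and 39.8 CPM against 53.0 and 51.6 CPM, which fell by 0.28 (SE 0.08, adjusted p = 0.0147) and was lost without cultured control 2 (adjusted p = 0.201) or transplanted control 1 (adjusted p = 0.0629). Dnmt3a, at 89.3 and 81.0 against 92.8 and 91.5 CPM, had a log2 fold change of -0.12 (adjusted p = 0.218).

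In the same contrast all 14 proliferation markers rose (summed 5090 to 5213 CPM in culture, 2199 to 2463 CPM after transplantation), Mki67 by 2.06 (adjusted p = 7.13e-06), and HSC markers fell for 5 and rose for 1 of 8 (773 to 780 against 1196 to 1425 CPM). Megakaryocyte markers rose for 3 of the 6 tested (2020 to 2022 against 1094 to 1285 CPM, Gp6 at 0 in both), B cell markers fell for 3 of the 5 tested (18.99 to 20.3 against 30.4 to 32.0 CPM, Pax5 and Ms4a1 at 0 in both), and MEP markers rose for 2 and fell for 2 of 8 (684 to 692 against 1291 to 1698 CPM). GMP markers rose for 1 and fell for 1 of 8 (210 to 220 against 238 to 334 CPM, Mpo and Ctsg at 0 in the cultured controls), and T cell markers rose for 1 of the 2 tested (20.2 to 20.3 against 11.1 to 13.5 CPM, Cd3e, Cd3g, Cd2 and Cd5 at 0 in both). The part of these markers in the values was not tested, and culture, sort gate and kit cannot be told apart. Of the 33 other methylation genes 14 rose, 7 fell and 12 were not called. Idh1 rose by 2.03, the stress-induced Gadd45b by 1.26 and Hells by 1.21, whereas Gadd45a fell by 1.90, the DNA glycosylase Neil1 by 0.93 and Ogt, an O-GlcNAc transferase that binds TET proteins, by 0.71.

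The progenitors asked how the genes change as young cells take on a lineage. From CMP to MEP, Uhrf1 rose while the other 6 genes fell, Tet1 the most. With MEP against CMP 1 gene was higher, against 28.9% of 18234 genes tested, and 6 were lower, against 35.6%, so that a call by itself was common in this contrast. The median log2 fold change was -1.47 for the 7 and -0.07 for all genes. The 3 progenitor comparisons share their libraries and are given side by side.

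Uhrf1 stood at 317 and 316 CPM in CMP, 281 and 309 CPM in GMP and 439 and 410 CPM in MEP. Both MEP libraries were above all others, and Uhrf1 rose by 0.41 in MEP against CMP (SE 0.05, adjusted p = 1.59e-05). Dnmt1, its partner, stood at 753 and 759 CPM in CMP, 742 and 741 CPM in GMP and 594 and 594 CPM in MEP. Dnmt1 was lowest in MEP, and fell there by 0.36 (SE 0.04, adjusted p = 2.58e-06), so the pair moved in opposite directions.

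Dnmt3a stood at 84.6 and 80.1 CPM in CMP, 54.7 and 61.8 CPM in GMP and 29.4 and 30.5 CPM in MEP. The 3 types did not overlap, and Dnmt3a fell by 1.47 from CMP to MEP (SE 0.09, adjusted p = 4.97e-09). Dnmt3b stood at 99.9 and 109 CPM, 55.2 and 65.8 CPM and 36.7 and 33.4 CPM in the same order. It fell by 1.59 in MEP (SE 0.10, adjusted p = 7.06e-09), again with no overlap among the 3 types.

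Tet1 stood at 31.3 and 29.6 CPM in CMP, 14.8 and 15.5 CPM in GMP and 7.75 and 6.74 CPM in MEP. The 3 types did not overlap, and Tet1 fell by 2.09 in MEP against CMP (SE 0.14, adjusted p = 1.82e-08). Tet2 stood at 69.5 and 61.6 CPM in CMP, 71.7 and 69.0 CPM in GMP and 21.1 and 20.7 CPM in MEP. CMP and GMP overlapped for Tet2, whereas in MEP it fell by 1.67 (SE 0.09, adjusted p = 2.02e-09). Tet3 stood at 51.3 and 56.7 CPM, 39.2 and 44.4 CPM and 29.3 and 31.0 CPM in CMP, GMP and MEP, and fell by 0.85 in MEP (SE 0.10, adjusted p = 5.22e-06).

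With GMP against CMP 4 of the 7 were lower, against 16.0% of genes, and 0 were higher, against 18.8%. Dnmt3a fell by 0.47 (SE 0.08, adjusted p = 0.000777), Dnmt3b by 0.76 (SE 0.09, adjusted p = 4.04e-05) and Tet1 by 0.97 (SE 0.13, adjusted p = 8.89e-05). Tet3 fell by 0.34 (SE 0.10, adjusted p = 0.0182), a call that was lost without CMP library 2 (adjusted p = 0.154) or GMP library 1 (adjusted p = 0.15). Dnmt1 (0.01, adjusted p = 0.912), Uhrf1 (-0.07, adjusted p = 0.362) and Tet2 (0.14, adjusted p = 0.245) were not called.

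With MEP against GMP 1 of the 7 was higher, against 27.7% of genes, and 6 were lower, against 33.7%. Uhrf1 rose by 0.48 (adjusted p = 3.76e-06). Tet2 fell by 1.80 (adjusted p = 8.59e-10), Tet1 by 1.12, Dnmt3a by 1.01, Dnmt3b by 0.84, Tet3 by 0.52 and Dnmt1 by 0.37, with adjusted p of at most 0.00054.

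Proliferation markers rose in MEP against CMP for 12 of 14 and fell for 2, and in GMP against CMP rose for 7 and fell for 3. Their sums were 6705 to 6885 CPM in CMP, 7168 to 7292 CPM in GMP and 9136 to 9347 CPM in MEP. In MEP against CMP all 8 MEP markers rose (859 to 918 CPM in CMP, 16967 to 17691 CPM in MEP), all 8 GMP markers fell (18595 to 22716 against 37.1 to 67.1 CPM), megakaryocyte markers fell for 6 of 6 tested (726 to 728 against 30.2 to 31.3 CPM, Gp1bb at 0 in MEP), and HSC markers fell for 6 and rose for 1 of 7 tested, with Procr and Hoxb5 at 0 in MEP. In GMP against CMP, GMP markers rose for 7 of 8 (73536 to 74391 CPM in GMP), MEP markers fell for 6 and rose for 1 of 8 (297 to 338 CPM in GMP), megakaryocyte markers fell for 6 of 6 tested (48.4 to 92.4 CPM in GMP, Gp6 at 0) and HSC markers fell for 6 of 7 tested. B cell markers rose for 1 and fell for 1 of 4 tested in MEP and were not called in GMP, and T cell markers fell for 1 of 2 tested in each. In MEP against GMP, proliferation markers rose for 11 and fell for 3 of 14, all 8 MEP markers rose and all 8 GMP markers fell. HSC markers rose for 2 and fell for 3 of 7 tested there, and megakaryocyte markers rose for 2 and fell for 2 of 6. B cell markers rose for 1 and fell for 1 of 4, and T cell markers fell for 2 of 2. The part of these markers in the values was not tested. Of the other methylation genes 32 were tested. In MEP against CMP 10 rose and 15 fell, led by Mbd2, a reader of methylated CpG (1.94 higher), and Gadd45a (1.63), and by falls of Gadd45b, Cxxc5, whose product binds CpG (fell by 4.93), and Idh1 (fell by 2.75). In GMP against CMP 8 rose and 8 fell, with Gadd45b (1.55) and Idh1 (1.24) among the rises and Gadd45g (fell by 2.10), the methyl-CpG reader Zbtb4 (fell by 1.68) and Cxxc5 (fell by 1.26) among the falls. In MEP against GMP 13 rose and 13 fell, with Gadd45g (2.52), Gadd45a (2.08) and Mbd2 (1.98) as the largest rises and Dnmt3l, Gadd45b and Idh1 (fell by 3.99) as the largest falls.

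Dnmt3l, a cofactor of the de novo enzymes with no activity of its own, was called in GMP at low counts. Its raw counts were 2 and 2 in CMP, 38 and 26 in GMP and 0 and 0 in MEP, so no fold is given. Gadd45b had 228 and 407 raw counts in CMP, 669 and 845 in GMP and 4 and 6 in MEP, and was called lower in MEP in both comparisons.

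CMP and YHSCs were compared in 1 fit of the young cells, in which the experiment and the cell type cannot be told apart. The YHSC files hold spike-in rows and the progenitor files do not. CMP carried far more of the maintenance pair and less Tet1, and Dnmt3a was lower too but close to the median of all genes. Of the 7 genes 2 were higher, against 30.0% of 25716 genes tested, and 2 were lower, against 48.3%. The median over all genes was -0.49, or -0.61 with DESeq2, so that changes are read against that shift.

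Uhrf1 rose by 2.39 (SE 0.05, adjusted p = 1.04e-20), from 56.4 to 63.7 CPM in YHSCs to 316 and 317 CPM in CMP. Dnmt1 rose by 1.82 (SE 0.04, adjusted p = 4.79e-20), from 198 to 225 CPM in YHSCs to 753 and 759 CPM in CMP. Tet1 fell by 1.30 (SE 0.08, adjusted p = 3.06e-12), from 70.5 to 78.6 CPM in YHSCs to 31.3 and 29.6 CPM in CMP. Dnmt3a fell by 0.62 (SE 0.06, adjusted p = 6.07e-09), from 121 to 130 CPM to 84.6 and 80.1 CPM, which is 0.62 below no change but close to the median of all genes. Dnmt3b (0.16, SE 0.07, adjusted p = 0.0586), Tet2 (0.01, adjusted p = 0.89) and Tet3 (-0.04, adjusted p = 0.618) were not called against no change. Each of them lay above the median of all genes. Dnmt3b was called higher without a filter on low counts (adjusted p = 0.0316), with GMP and MEP left out of the fit (adjusted p = 0.0177), and without any 1 of YHSC library 1, CMP library 1 or the GMP and MEP libraries (adjusted p = 0.0287 to 0.0447), and Tet3 was called lower by DESeq2 (-0.16, adjusted p = 0.0447) and by edgeR with DESeq2 size factors (-0.16, adjusted p = 0.0483).

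All 14 proliferation markers rose from YHSCs to CMP, from 1316 to 1374 CPM to 6705 to 6885 CPM. All 8 GMP markers rose as well (154 to 183 CPM in YHSCs, 18595 to 22716 CPM in CMP), all 8 HSC markers fell (1495 to 1630 against 70.9 to 72.5 CPM), and MEP markers rose for 6 and fell for 2 of 8 (1328 to 1499 against 859 to 918 CPM). Megakaryocyte markers rose for 3 and fell for 3 of 6 tested (1474 to 1561 against 726 to 728 CPM), B cell markers fell for 6 of 8 (77.2 to 139 against 45.2 to 48.6 CPM, Pax5 and Ms4a1 at 0 in CMP) and T cell markers fell for 4 of 6 (12.7 to 14.1 against 5.33 to 5.54 CPM, Cd3e, Cd3g and Cd2 at 0 in CMP). The part of these markers in the values was not tested. Of the other methylation genes 19 rose, 13 fell and 1 was not called. The largest rises were those of Hells by 2.89, the thymine DNA glycosylase Tdg by 1.77 and Cdca7, a partner of HELLS, by 1.64. The 3 largest falls were those of Cxxc4, with raw counts of 19, 21, 20 and 10 in YHSCs and 0 and 0 in CMP, of Zfp57, which fell by 4.21, and of Dnmt3l, with raw counts of 19, 23, 12 and 19 in YHSCs and 2 and 2 in CMP.

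Over the 11 group means Dnmt1 and Uhrf1 correlated positively with the proliferation markers, and Tet1 and Dnmt3a negatively. Between YHSCs and OHSCs, however, Tet1 and Dnmt3a were lower together with the summed markers. As a description over group means of log2 CPM, Pearson's r with the summed proliferation markers was 0.995 for Uhrf1 (Spearman's rho 0.955, r 0.996 without the 2 groups farthest from the median) and 0.954 for Dnmt1 (rho 0.845, r 0.887). It was -0.827 for Tet1 (rho -0.818, r -0.912), -0.718 for Dnmt3a (rho -0.845, r -0.677), -0.448 for Tet2 (rho -0.209, r -0.361), -0.444 for Tet3 (rho -0.327, r -0.114) and -0.219 for Dnmt3b (rho -0.055, r -0.54). The groups share kits and batches, so the points are not independent.

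**Figure D3:**
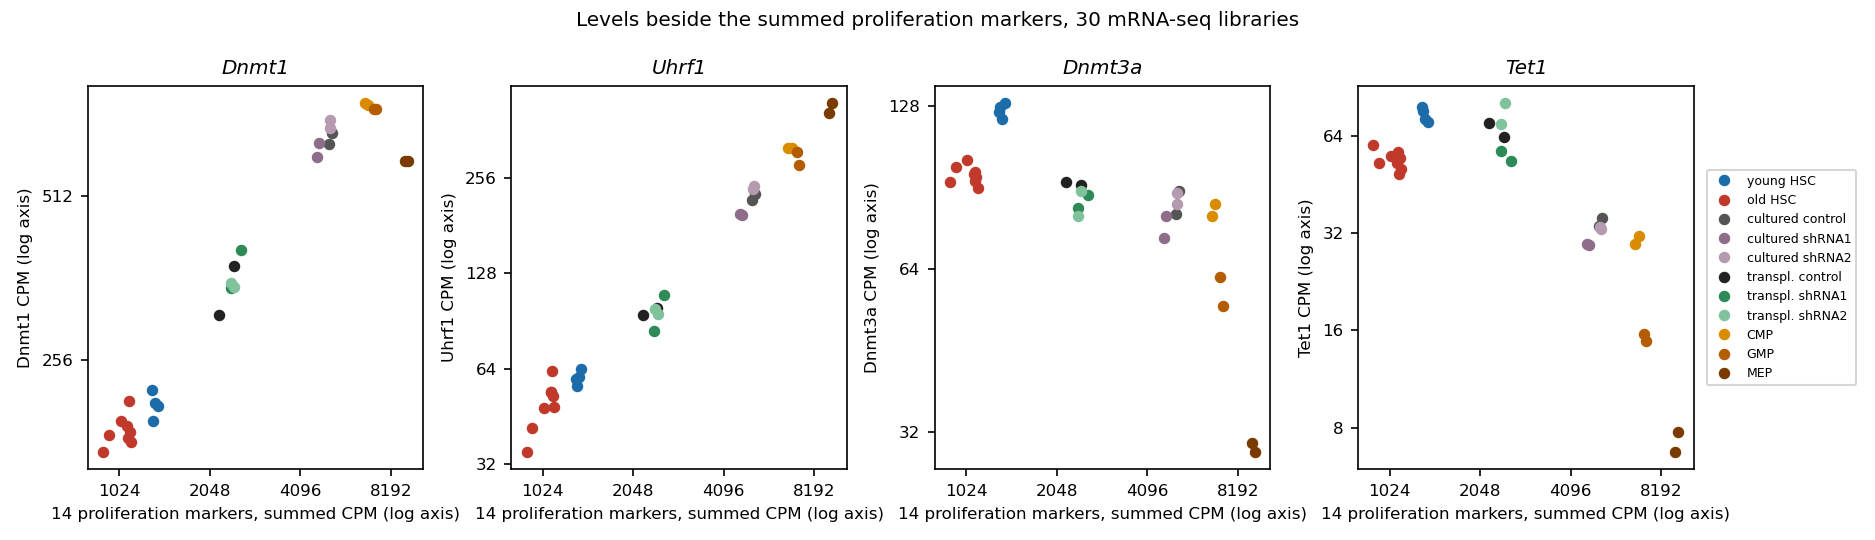
Level of Dnmt1, Uhrf1, Dnmt3a and Tet1 (CPM, log axis) against the sum of 14 proliferation markers (CPM, log axis) in the 30 mRNA-seq libraries, by group. Uhrf1 follows the sum from OHSCs at 905 to 1116 CPM up to MEP at 9136 to 9347 CPM, Dnmt1 follows it up to CMP and GMP, and Tet1 is lower in OHSCs than in YHSCs and lowest in GMP and MEP.

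Among the members themselves, the highest correlations over the 11 groups were those of Dnmt1 with Uhrf1 (r = 0.943) and of Dnmt3a with Tet1 (r = 0.909), followed by Dnmt3a with Dnmt3b (r = 0.774). Among 15734 genes with a mean above 1 CPM, those most like Dnmt1 over the 11 groups were Troap (r = 0.993), Hells (0.992) and Foxm1 (0.991), and those most like Uhrf1 were Rad54l (0.996), Mcm5 (0.995), which is also 1 of the proliferation markers, and Nup62. Tet1 was followed most closely by Calcrl (0.991), Paqr5 and Gm37206. For Dnmt3a these were Foxred2 (0.982), Zfp319 and Nhsl1, for Dnmt3b Clnk (0.955), 4931428F04Rik and Dok2, for Tet2 Slc12a9 (0.9905), 1700037C18Rik and Prodh, and for Tet3 Dpp4 (0.942), Zfp398 and Iffo1.

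Histone peaks were assigned to the genes by the gene name in the files. H3K4me3, a mark of active starts, was present at all 7 genes in YHSCs, with 20 peaks of 33199. The highest peak of each gene had a signal (mean of 2 libraries) of 26.4 at Dnmt1 (24.6 and 28.2), 26.0 at Tet1, 23.6 at Dnmt3b, 22.4 at Uhrf1, 20.7 at Tet3 and 20.5 at Dnmt3a. At Tet2 it stood between those of Dnmt3b and Uhrf1, at 21.7 and 23.4 in the libraries. These highest peaks stood above 84.0% to 95.7% of all H3K4me3 peaks. The Dnmt1 peak (chr9:20951499-20953004) overlapped the downstream window shown above and the window next to it, and not the upstream window. H3K27me3, a mark of Polycomb-silenced genes, had 0 peaks named for the 7 genes among 55820. H3K36me3 domains, which mark transcribed bodies and were deposited as 1 table with no value per library, covered 76.1% of the span of Tet1, 83.1% of Dnmt1, 86.7% of Uhrf1, 93.55% of Dnmt3a, 94.9% of Tet2, 95.8% of Tet3 and 95.9% of Dnmt3b, against a median of 88.1% over 12356 genes.

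H3K27ac, a mark of active starts and enhancers, had 19 peaks at the 7 genes among 39557, with 7 at Dnmt3a, 4 each at Tet1 and Tet3, and 1 at each of the others. By limma on log2(signal + 0.5) with 2 young and 2 old libraries, 0 of the 19 were called higher, against 2.71% of all peaks, and 0 lower, against 0.465%. These background counts (1073 higher and 184 lower) moved to 838 higher and 661 lower with libraries scaled to the same median. Of the 19, 2 had an unadjusted p below 0.05 by limma, against 5018 peaks higher and 1905 lower at that limit among all 39557. The first lies in the body of Tet1 (chr10:62829610-62830168), with signals of 1.17 and 1.22 in YHSCs and 2.24 and 1.84 in OHSCs. Both old values were above both young ones, with a log2 difference of 0.58 (SE 0.20, adjusted p = 0.106 by limma). The second lies over a start of Tet3 (chr6:83455595-83457453), with signals of 7.84 and 5.98 in YHSCs and 5.36 and 5.28 in OHSCs. Both old values lay below both young ones (-0.34, SE 0.14, adjusted p = 0.188 by limma). Leaving out a young library leaves 1, which is assumed to vary like the old pair. Without YHSC library 2 limma called the Tet3 start peak lower, beside 1639 peaks higher and 1332 lower in all, and without YHSC library 1, beside 4249 higher and 560 lower in all, it called 2 other peaks, 1 higher in the body of Tet3 (chr6:83449221-83449910) and 1 lower in the body of Tet1 (chr10:62858351-62859057). At the Tet2 start (chr3:133543274-133545384) signals of 7.90 and 5.57 in YHSCs and 6.62 and 6.18 in OHSCs overlapped.

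**Figure D4:**
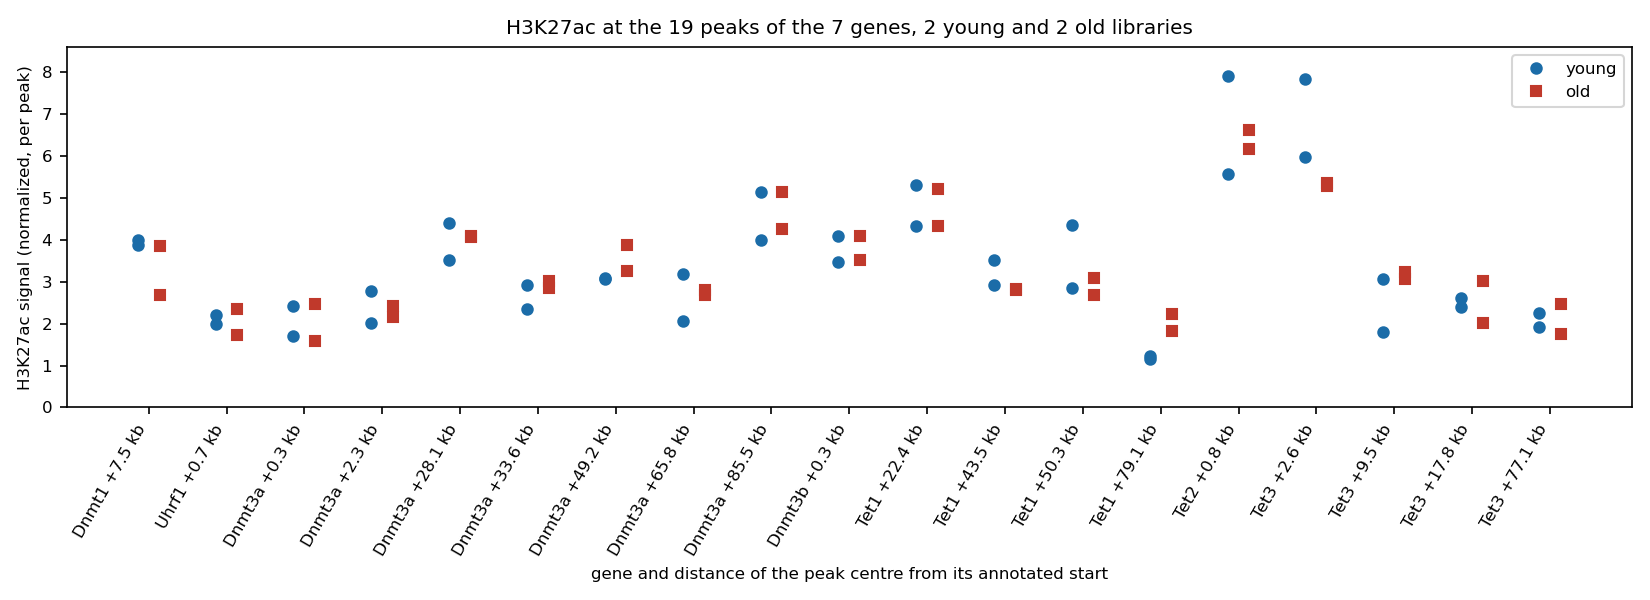
H3K27ac signal (deposited units) at the 19 peaks named for the 7 genes, in 2 young and 2 old HSC libraries, with 1 point for each library. The values of the ages overlap or lie close at most peaks, the Tet3 start peak has 7.84 and 5.98 in young against 5.36 and 5.28 in old, and the Tet1 body peak has 1.17 and 1.22 against 2.24 and 1.84.

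For accessibility, 68 ATAC-seq regions overlapped the gene bodies or the 1000 bases before the starts, and 49 passed the filter on low counts. Counts per library ran from 15427933 to 26260337 in the 4 YHSC libraries and from 20033166 to 25920194 in the 4 OHSC libraries. At the study's limits (adjusted p below 0.01 and a fold above 1.5) edgeR called 0 of the 49 higher, against 10.1% of 89245 regions, and 0 lower, against 2.9%, and DESeq2 also called 0. At an unadjusted p below 0.05 edgeR gave 18, which is not read further because the share of all regions at that limit is not given here. At an adjusted p below 0.05 with no fold limit, 12 of the 49 were lower (24.5%), against 15.3% of all regions, and 1 was higher (2.04%), against 18.4%. Dnmt3a held 6 of the 12 lower regions among its 13 tested, Uhrf1 2 of 2, Tet3 2 of 11, Tet2 1 of 4 and Tet1 1 of 14, while Dnmt1 and Dnmt3b held 0 of 2 and 0 of 3. Untested regions of low CPM were higher in OHSCs without overlap at Tet2 (chr3:133531669-133531904, means 0.421 and 1.31 CPM, chr3:133516225-133516488, chr3:133479089-133479372 and chr3:133471246-133471804) and Tet3 (chr6:83433737-83433886). The reverse held at Dnmt3a (chr12:3842933-3843259, means 1.60 and 0.813 CPM).

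At Dnmt3a the lower regions lay along the first part and the body of the gene. An intron region 86878 bases from the gene start (chr12:3892504-3893267) stood at 28.6, 31.8, 27.1 and 29.6 CPM in YHSCs and at 22.4, 20.7, 21.4 and 24.5 CPM in OHSCs. The ages did not overlap, and it fell by 0.39 (SE 0.07, adjusted p = 9.52e-06). An intron region 2071 bases from the start (chr12:3807307-3808849) stood at 24.2, 22.02, 26.6 and 26.1 CPM against 17.8, 21.4, 17.7 and 19.1 CPM and fell by 0.38 (SE 0.08, adjusted p = 6.13e-05), without overlap. Regions at 65230, 28532 and 50044 bases fell by 0.26, 0.26 and 0.16. Of the regions that hold RefSeq windows of Dnmt3a, the upstream one (chr12:3806085-3807257), which holds the window shown above, was not called (-0.04, adjusted p = 0.73). The downstream one, 85484 bases from the gene start (chr12:3890931-3892050), stood at 20.9, 21.9, 24.9 and 20.1 CPM in YHSCs and at 18.7, 16.6, 17.8 and 19.8 CPM in OHSCs. The ages did not overlap there, and the region fell by 0.27 (SE 0.08, adjusted p = 0.0061). It holds the RefSeq window chr12:3891494-3891793, with 18 CpG, which lay in an H3K27ac peak named for Dnmt3a, unlike the other Dnmt3a windows.

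The Tet2 start region (chr3:133543834-133545490) stood at 84.8, 87.9, 84.6 and 84.1 CPM in YHSCs and at 77.6, 75.7, 75.8 and 72.1 CPM in OHSCs. All old libraries lay below all young ones, and the region fell by 0.18 (SE 0.04, adjusted p = 0.000757). A start region of Tet3 (chr6:83455441-83457346), which overlaps the H3K27ac peak above, stood at 40.4, 41.1, 40.1 and 42.2 CPM against 32.2, 29.2, 35.7 and 34.98 CPM and fell by 0.31 (SE 0.06, adjusted p = 3.39e-05), with no overlap. Another start region of Tet3 (chr6:83440885-83442129) stood at 34.8, 30.8, 37.8 and 37.6 CPM against 33.6, 27.8, 32.7 and 31.1 CPM. There the ages overlapped, and it fell by 0.18 (SE 0.06, adjusted p = 0.0256 by edgeR). The Uhrf1 start region (chr17:56303140-56303698) stood at 11.2, 11.8, 11.996 and 10.5 CPM against 8.91, 9.44, 8.24 and 10.1 CPM and fell by 0.31 (SE 0.10, adjusted p = 0.0185), again without overlap. The region over the Uhrf1 window shown above (chr17:56303841-56304689) fell by 0.16 (adjusted p = 0.0301). The lower region of Tet1 lay at a start (chr10:62885820-62887526), at 39.6, 36.6, 38.9 and 39.4 CPM in YHSCs and 35.8, 34.2, 32.7 and 35.4 CPM in OHSCs. The ages did not overlap, and it fell by 0.17 (SE 0.06, adjusted p = 0.0196). The single higher region lay in an intron of Tet1 (chr10:62863601-62864036), at 2.91, 4.06, 4.58 and 4.82 CPM against 5.23, 4.66, 6.62 and 5.05 CPM, which overlapped (0.40, SE 0.16, adjusted p = 0.0464). The downstream Dnmt1 start (chr9:20952151-20953315) was not called (-0.12, adjusted p = 0.106).

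**Figure D5:**
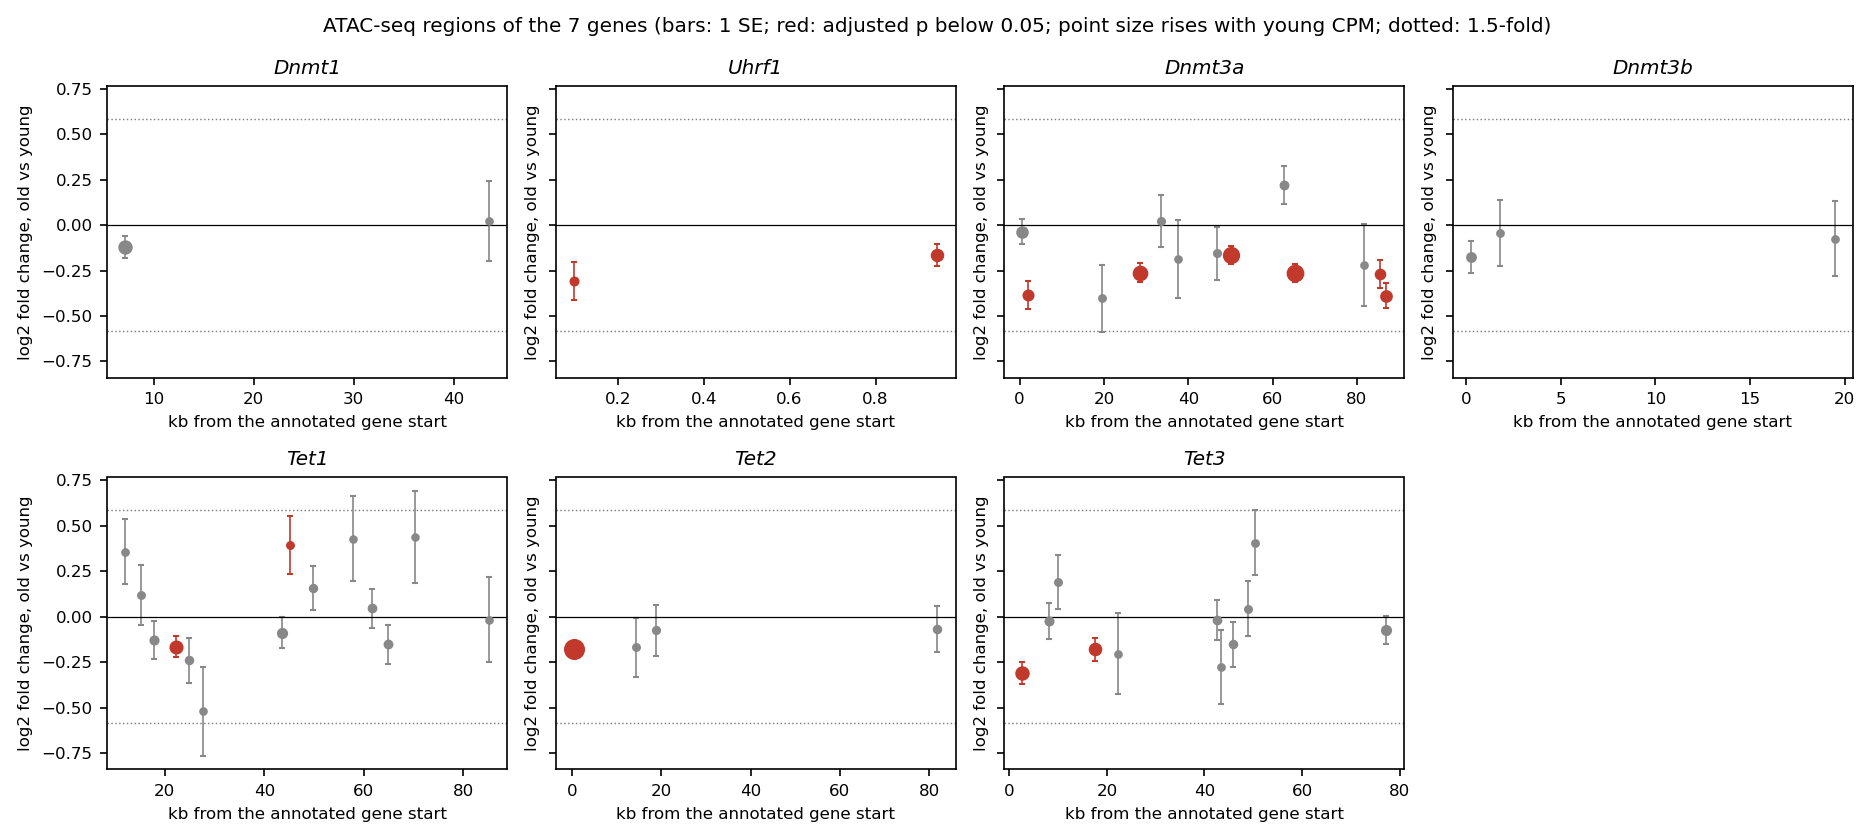
Log2 fold change of ATAC-seq counts in old against young HSCs (bars for 1 SE) at the 49 tested regions of the 7 genes, by distance from the gene start in kb, with point size set by the young level in CPM, red for an adjusted p below 0.05 and dotted lines at a fold of 1.5. Most red points lie below 0, 6 of them at Dnmt3a, and none of the 49 was called beyond the dotted lines.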

How the data were processed

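The members and gene lists were chosen with earlier results of these data known. For mRNA-seq the authors deposited raw counts per gene, and the submitters' processing notes name cutadapt, STAR and featureCounts with mm10. No source used here gives the STAR version, or whether strand or multi-mapping was considered in counting. For ATAC-seq the authors deposited raw counts per consensus region (BWA, MACS2). For histone marks the authors deposited a normalised signal per peak, alongside fold change columns of their own comparison, which were not used. A further 8 columns of per-sample values, 4 of old ATAC-seq libraries and 4 of old H3K4me3 and H3K27me3 libraries, could not be tied to a listed sample and were not used. The authors counted on GENCODE M22 and places here are from M21. Samples were grouped by their labels.

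Counts were compared with edgeR 4.0.16 (TMM, filterByExpr, robust quasi-likelihood test, Benjamini-Hochberg adjustment) in R 4.3.3, with DESeq2 1.42.0 as an alternative. ATAC-seq regions needed more than 1.5 CPM in at least 4 libraries, and were called at an adjusted p below 0.01 and a fold above 1.5. H3K27ac was compared with limma 3.58.1 on log2(signal + 0.5). Likeness used Pearson's r of group mean log2(CPM + 0.5) for genes with a mean above 1 CPM. Python 3.11.15, pandas 2.3.3, numpy 2.4.6 and matplotlib 3.10.9 were used. Scripts were tested on simulated data. All 7 members are named in every comparison, and of 33 further methylation genes the 3 called genes with the largest rise and the 3 with the largest fall, of which 1 gene is not reported here. No 2 libraries of a group were alike within sampling noise (chi-square per degree of freedom of at least 4.42). Spike-in RNA took 6.25% to 6.68% of YHSC and 6.05% to 6.93% of OHSC counts. Alternatives were other size factors, no low-count filter, each shRNA alone, fold limits, the replicate number as a block, and leaving out each library.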

Additional observations from a re-analysis of the deposited data

Results flagged for a closer look

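Of 40 groups of 4 to 10 libraries examined, 1 held a library apart from the rest by Dixon's criterion at the 95% level, where chance gives about 1 in 20. It is the Dnmt3a ATAC-seq region 50044 bases from the gene start (chr12:3855658-3856444), where YHSC library 1 stood at 64.6 CPM and the other 3 at 58.2, 58.0 and 58.8 CPM. The gap between YHSC library 1 and the nearest library was 0.867 of the range of the group.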

How the results depend on the processing

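Among 74 recomputed counts of members called, 63 stayed within 1.5 times the main count, and among 448 recomputed member log2 fold changes 410 kept their direction and side of the threshold. With a fold above 1.5 added, 0 members were called with age (5 without it), 0 in culture (1), 3 between cultured and transplanted controls (6), 2 in GMP against CMP (4) and 4 in MEP against GMP (7). In MEP against CMP that fold took away the calls of Dnmt1 (-0.36) and Uhrf1 (0.41). In culture, shRNA1 alone gave 2 and an unadjusted p with a fold above 1.5 gave 0. For H3K27ac (main 0), scaling libraries to the same median gave 1 (Tet3 start) and the study's fold rule gave 1 (Tet1). For ATAC-seq (main 0), no filter gave 3 and an adjusted p below 0.05 with no fold limit gave 13. Leaving out 1 library gave 4 to 6 members with age, 0 to 1 in culture, 5 to 6 between controls, 3 to 4 in GMP against CMP, 4 to 5 in CMP against YHSCs, 0 to 2 for H3K27ac and 0 to 0 for ATAC-seq. Over all H3K27ac peaks, leaving out 1 library moved the calls from 1073 higher and 184 lower to between 80 and 4249 higher and between 7 and 1332 lower.

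Replicate numbers are shared between groups, but the deviations of same-numbered libraries had correlations of -0.168 to 0.030 for age, so the numbers do not pair the libraries. With the replicate number as a block, members called with age were 4 (Dnmt1 lost, -0.10, adjusted p = 0.396), and over all genes 3248 of 26121 were called with age instead of 4434 of 21522, since the filter on low counts kept more genes under the block. On the same 21522 genes, an alternative chosen after seeing the data, the block gave 3544 genes and 4 members (Dnmt1 -0.11, adjusted p = 0.182). Dnmt3b in culture stayed called under the block (-0.37, adjusted p = 0.0315), and the members called in the other RNA comparisons stayed at 1, 6, 7, 4, 7 and 4.

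Directions reversed only among values that were not called. These were, in culture, Dnmt1 with shRNA1 alone (-0.073) and, with shRNA2 alone, Dnmt3a (0.0212), Uhrf1 (0.0903), Tet2 (-0.0078) and Tet3 (-0.0331). After transplantation they were Dnmt3b with shRNA1 alone (-0.0647), and Uhrf1 (0.0001) and Tet1 (0.17) with shRNA2 alone. Dnmt1 in GMP against CMP with no filter was -0.0359, and Tet2 in CMP against YHSCs was -0.11 with DESeq2 size factors and -0.11 with DESeq2. Leaving out 1 library gave reversals within these ranges. In culture they were -0.0275 to 0.0496 for Dnmt1, -0.13 to 0.0109 for Dnmt3a, -0.0944 to 0.0085 for Uhrf1, -0.0886 to 0.14 for Tet2 and -0.0194 to 0.0643 for Tet3. After transplantation they were -0.0643 to 0.23 for Dnmt1, -0.063 to 0.0435 for Dnmt3b, -0.0669 to 0.0563 for Uhrf1 and -0.15 to 0.047 for Tet1. For the interaction they were -0.0727 to 0.23 for Dnmt1, -0.13 to 0.0127 for Dnmt3a, -0.0209 to 0.10 for Uhrf1, -0.0036 to 0.20 for Tet1, -0.0905 to 0.14 for Tet2 and -0.0143 to 0.0891 for Tet3. In GMP against CMP Dnmt1 ranged from -0.0101 to 0.0123, and in CMP against YHSCs Tet2 from -0.0662 to 0.10 and Tet3 from -0.11 to 0.0411. The causes were not tested.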
